A study of Mus musculus with 18 samples.

Results

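The glutathione S-transferases described here were 10 genes, taken by symbol from the deposited count table, which holds 24421 gene rows: Gsta4 of the alpha class, Gstm1, Gstm2 and Gstm5 of the mu class, Gstp1 and Gstp2 of the pi class, Gsto1 of the omega class, Gstt1 and Gstt3 of the theta class, and Mgst1, which is bound to membranes. Glutathione S-transferases join the tripeptide glutathione to reactive, electrophilic molecules, and the conjugates are then pumped out of the cell. The soluble classes differ in the substrates they prefer, and several members are known as targets of NRF2, a transcription factor that answers oxidative and electrophilic stress. In tumours the family is best known for the detoxification of drugs, and 17-DMAG, the drug of this study, carries a benzoquinone ring, a chemical group that can react with glutathione.

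RNA was sequenced from 4T1 cells, a mouse mammary carcinoma line recorded as strain BALB/cfC3H with genotype Wild type, and from 4T1R1 and 4T1R2, populations of 4T1 that had survived repeated exposure to 17-DMAG, an inhibitor of the chaperone HSP90. Each was left untreated or given 1.5 µM 17-DMAG before RNA was taken, in 3 libraries a group, so the 6 groups share a cell line and a genotype and differ in selection and treatment. The sample records give 48 h for this exposure and the series record gives 2 h, and the difference could not be settled from the counts. 4T1R1 and 4T1R2 are selected populations, not stated to be clones, and each is a single population, so n counts libraries and not selections.

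Library totals ran from 23354461 to 55094630 counts. The first 2 libraries of 4T1 with 17-DMAG differed less than any other pair within a group (mean chi-square per gene 1.10 against 2.04 to 2.22). Their counts were averaged and stand for 1 sample, which left 17 libraries, with n = 2 in that group and n = 3 in the others. Library names form separate runs, with 4T1R1 in one and 4T1 and 4T1R2 in the other, so a difference between 4T1R1 and either other population cannot be told apart from the run, whereas the comparison of 4T1R2 with 4T1 and all drug responses lie within a run. As a check of treatment, the chaperone gene Hspa1b rose with 17-DMAG from 490.4 to 16914 normalized counts in 4T1, from 465 to 4348 in 4T1R1 and from 675 to 3302 in 4T1R2. The sum of 10 mammary epithelial markers lay between 77380 and 78507 normalized counts in untreated 4T1, between 51835 and 54352 in 4T1R1 and between 60149 and 61344 in 4T1R2, with Krt5 at no more than 3 counts in any library. The sum of 8 leukocyte markers lay between 388 and 453, between 755 and 853, and between 906 and 982, respectively, most of it from Cd14 (243, 581 and 704 on average) and Cd68, with Cd3e at no more than 3 counts in any library, and that of 8 fibroblast markers between 690 and 771, between 842 and 895, and between 920 and 1043, most of it from Pdgfra, with the 4 markers Col3a1, Dcn, Lum and Thy1 at no more than 3 counts throughout. The 6 endothelial markers summed to at most 23.4, with Emcn and Kdr at no more than 3 counts. The part of these markers in the differences given below was not tested, and in bulk RNA fewer cells with a transcript and less of it per cell cannot be told apart.

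Normalized counts are read counts divided by the library size after scaling by the trimmed mean of M values (TMM) and brought to a common total. They serve to compare libraries, not genes. Of the 10 genes, 8 passed the filter on low counts and were tested among 13507 genes, and Gstp2 and Gstt1 did not. Calls below are adjusted p under 0.05 by edgeR's quasi-likelihood test with Benjamini-Hochberg adjustment over all genes tested.

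Positions are given on GRCm38 with the GENCODE vM21 annotation. Gstm1 (chr3:108012255-108017973, minus strand), Gstm2 (chr3:107981702-107986453, minus strand) and Gstm5 (chr3:107895821-107898686, plus strand) lie close together on chromosome 3, and Gstp1 (chr19:4035407-4037985) and Gstp2 (chr19:4040285-4046023), both on the minus strand, neighbour each other on chromosome 19, which also carries Gsto1 (chr19:47854970-47864790, plus strand). Gstt1 (chr10:75783813-75798584) and Gstt3 (chr10:75774115-75781414), both on the minus strand, lie side by side on chromosome 10. Gsta4 lies at chr9:78182774-78209349 and Mgst1 at chr6:138140316-138156755, both on the plus strand. Gstm5 overlaps 4933431E20Rik and Gsto1 overlaps Cfap43 on the opposite strand, and Gstt3 overlaps Gm20441 on its own strand. The libraries mark strand, but whether the counting used it is not given in the sources used here, so reads of these overlapping genes could not be assigned with certainty.

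Gstp1 and Gstp2 encode near-identical pi-class enzymes. Over 630 coding bases they differed at 12 positions and were 98.1% identical, and the longest stretch without a difference was 300 bases. The first 150 coding bases of each, from GENCODE vM21, are shown because 6 of the 12 differences fall there, and reads from stretches without a difference match both genes, with the differing bases in capitals.
Gstp1: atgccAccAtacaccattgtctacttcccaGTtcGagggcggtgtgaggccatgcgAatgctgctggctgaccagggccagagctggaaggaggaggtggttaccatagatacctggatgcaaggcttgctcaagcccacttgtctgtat
Gstp2: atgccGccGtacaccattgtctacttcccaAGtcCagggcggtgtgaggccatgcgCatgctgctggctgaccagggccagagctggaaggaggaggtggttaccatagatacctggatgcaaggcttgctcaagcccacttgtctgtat
Of the 1937 windows of 100 bases in Gstp1 transcripts, 486 (25.1%) also occurred in Gstp2, and 210 occurred in Gstp-ps. Of the 1168 windows of Gstp2, 548 (46.9%) occurred in another gene, with 486 in Gstp1 and 272 in Gstp-ps. For the others the share of windows found in another gene was 10.8% for Gstt3, all from the overlapping Gm20441, 5.86% for Gstm1, 0.357% for Gstm2 and 0 for the remaining genes. With windows of 50 bases the share was larger, at 18.9% for Gstm1, 5.65% for Gstm2, 12.5% for Gstt3, 33.7% for Gstp1 and 54.3% for Gstp2. It was 0 for the remaining genes again. How reads with several matches were counted is not given in the sources used here.

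The 250 bases before the start were searched on both strands in the RefSeq promoters of GRCm38.p6, which held 9 of the 10 genes and not Gsta4. The core of the antioxidant response element, through which NRF2 acts, was written TGACNNNGC, the AP-1 site TGACTCA and the core of the heat shock element TTCNNGAA, and the motifs can overlap. The antioxidant core was found in Gstm5 and Mgst1, against 10.2% of 32851 promoters, the AP-1 site in Gstm5, Gstp1 and Gstp2, against 4.46%, and the heat shock core in none of the 9, against 7.17%. These shares are of promoters, whereas a gene was counted if any of its listed starts had a match. For Mgst1 the core lay before one listed start, and the bases before another (chr6:138141337-138141586) held none of the 3 motifs. These starts are from RefSeq and differ from the GENCODE vM21 starts for some of these genes. The Mgst1 core and the Gstp2 AP-1 site lie within the GENCODE genes (chr6:138140316-138156755 and chr19:4040285-4046023). With its flanking bases, the Gstp1 AP-1 site spans the GENCODE start (chr19:4037985), and so does the Gstm5 antioxidant core (chr3:107895821). Positions before a start refer to RefSeq starts only. The matched sites are shown with 10 bases on either side and the motif in capitals, 5′ to 3′ on the gene's strand, because Mgst1 and Gstm5 are among the genes that differed between populations and the pi-class genes share their site.
Gstm5 antioxidant core, chr3:107895802-107895830, plus: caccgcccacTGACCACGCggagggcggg
Mgst1 antioxidant core, chr6:138140461-138140489, plus: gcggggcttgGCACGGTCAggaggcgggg
Gstm5 AP-1, chr3:107895668-107895694, plus: ctgtgcaacaTGACTCAcgcttcccgg
Gstp1 AP-1, chr19:4037970-4037996, minus: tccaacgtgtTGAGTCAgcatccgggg
Gstp2 AP-1, chr19:4042294-4042320, minus: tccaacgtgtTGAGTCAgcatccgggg
The 27 bases around the AP-1 site were the same in Gstp1 and Gstp2. Gstm1, which differed most between populations after Mgst1, held none of the 3 motifs in its 250 bases, whichever of its listed starts was taken. These matches describe the letters in these windows only.

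In untreated cells, Mgst1 and Gstm1 were 2.30 to 3.36 times as high in both resistant populations as in 4T1, and Gsta4 was lower in 4T1R1 and higher in 4T1R2. 4T1R2 was also higher than 4T1 in Gstm2, Gstm5 and Gsto1, and 4T1R1 in Gstt3. Between 4T1R1 and 4T1, 3 of the 8 genes tested were higher and 1 was lower, where 25.2% of all genes tested were higher and 27.5% lower, and the median log2 difference was 0.07 against 0.01 over all genes. Between 4T1R2 and 4T1, 6 of 8 were higher and 0 lower, where 25.6% of all genes were higher and 26.9% lower, with a median of 0.39 against 0.01. These comparisons share the untreated 4T1 libraries.

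**Figure D1:**
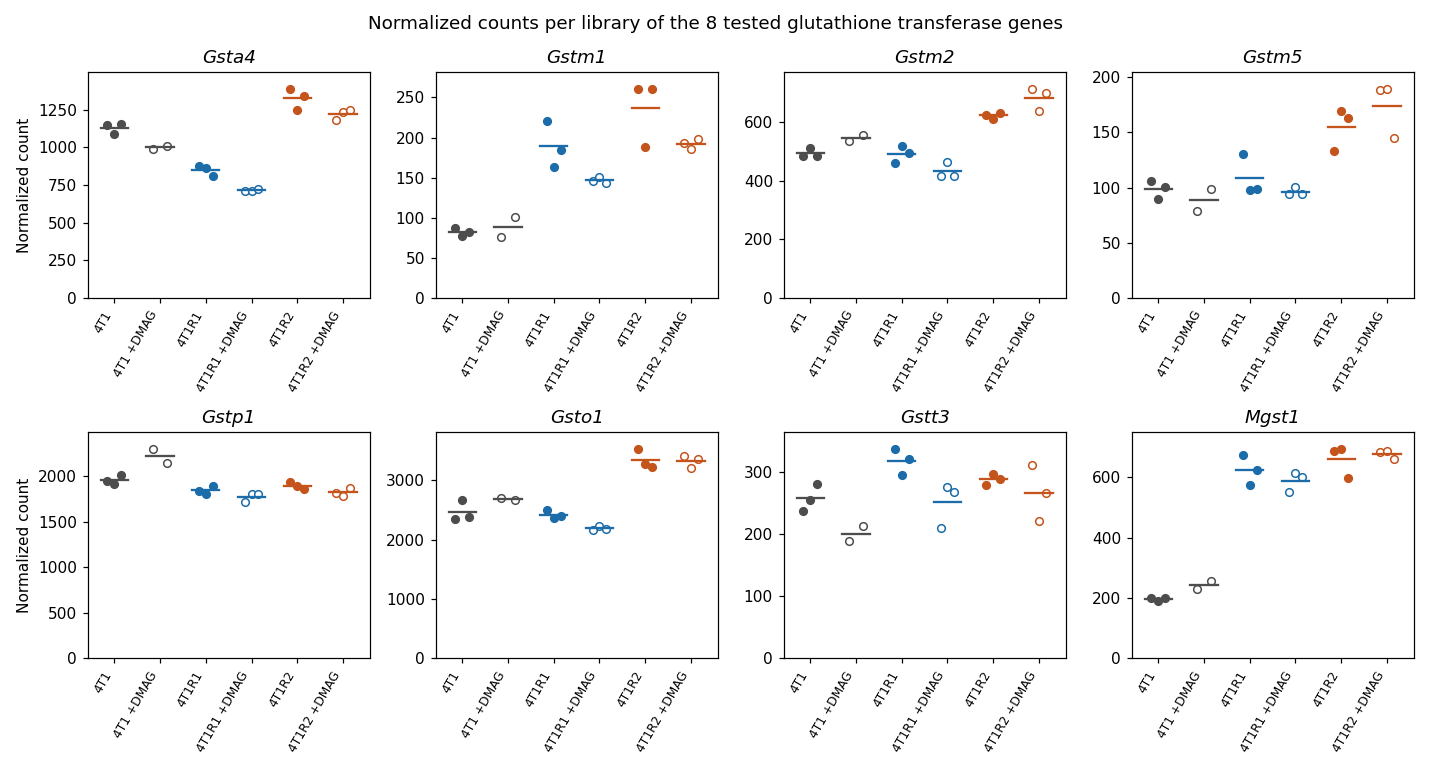
Normalized counts (vertical axis) of the 8 tested glutathione S-transferases in each library of the 6 groups, with filled points for untreated cells, open points for 17-DMAG and a bar at the mean of each group. All 4T1R1 and 4T1R2 libraries lie above all 4T1 libraries for Gstm1 and Mgst1, whereas Gsta4 is lowest in 4T1R1 and highest in 4T1R2.

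Mgst1, a membrane-bound transferase of the endoplasmic reticulum and outer mitochondrial membrane that also acts on lipid peroxides, gave 199, 190.2 and 199 normalized counts in the untreated 4T1 libraries. In 4T1R1 it gave 673, 573 and 624, and in 4T1R2 687, 694 and 596. All 6 resistant libraries thus lay above all 3 of 4T1, and the 4T1R1 and 4T1R2 libraries overlapped. The log2 difference was 1.67 (SE 0.0879, 3.18-fold, edgeR adjusted p = 1.16e-19) for 4T1R1 and 1.75 (SE 0.0885, 3.36-fold, adjusted p = 3.26e-20) for 4T1R2. Between 4T1R2 and 4T1R1 it was 0.08 (95% interval -0.07 to 0.23, edgeR adjusted p = 0.442).

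Gstm1, the mu-class transferase most studied in drug and carcinogen detoxification, gave 87.0, 76.9 and 82.9 normalized counts in untreated 4T1. The 4T1R1 libraries gave 220.2, 163 and 184, and the 4T1R2 libraries 261, 188 and 261. Again no resistant library overlapped with 4T1, but relative to their mean the replicates within each resistant population spread more than those of Mgst1. The SD of Gstm1 was 29.1 around 189 in 4T1R1 and 42.2 around 236 in 4T1R2. That of Mgst1 was 50.4 around 623 and 54.3 around 659. The log2 difference from 4T1 was 1.20 (SE 0.152, 2.30-fold, edgeR adjusted p = 9.92e-09) in 4T1R1 and 1.53 (SE 0.15, 2.89-fold, adjusted p = 1.72e-11) in 4T1R2.

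The other mu-class genes were higher in 4T1R2 than in both other populations and were not called between 4T1R1 and 4T1. Gstm2, which also conjugates aminochrome and other quinones, gave 485, 511 and 483 normalized counts in 4T1, 459.9, 517 and 496 in 4T1R1, and 625, 612 and 632 in 4T1R2. The 3 libraries of 4T1R2 lay above the other 6, whereas 4T1 and 4T1R1 overlapped. Gstm2 was 1.27-fold higher in 4T1R2 than in 4T1 (log2 0.34, SE 0.0741, edgeR adjusted p = 0.000166), and in 4T1R1 the log2 difference was -0.01 (95% interval -0.16 to 0.15, adjusted p = 0.96). Gstm5 gave 106, 89.8 and 100.4 normalized counts in 4T1, 131, 98.0 and 98.4 in 4T1R1, and 133, 169.5 and 163 in 4T1R2. Its lowest library in 4T1R2 lay just above the highest of 4T1R1. The log2 difference was 0.64 (SE 0.161, 1.56-fold, edgeR adjusted p = 0.000799) for 4T1R2 and 0.14 (SE 0.164, adjusted p = 0.484) for 4T1R1.

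Gsta4, an alpha-class enzyme known for clearing the lipid peroxidation product 4-hydroxynonenal, differed from 4T1 in opposite directions in the resistant populations. It gave 1147, 1089.95 and 1155 normalized counts in 4T1, 874, 865 and 812 in 4T1R1, and 1389, 1244 and 1341 in 4T1R2, and no group overlapped with another. It was lower in 4T1R1 (log2 -0.41, SE 0.0563, 0.751-fold, edgeR adjusted p = 5.16e-08) and higher in 4T1R2 (log2 0.23, SE 0.0548, 1.17-fold, adjusted p = 0.000451). Gsto1, an omega-class enzyme that reduces dehydroascorbate and removes glutathione from proteins, gave 2343, 2666 and 2383 normalized counts in 4T1, 2503, 2360.1 and 2396 in 4T1R1, and 3528, 3269 and 3229 in 4T1R2. Every 4T1R2 library was above the other 6. Gsto1 was 1.36-fold higher in 4T1R2 than in 4T1 (log2 0.44, SE 0.0437, edgeR adjusted p = 2.12e-11), and in 4T1R1 the log2 difference was -0.03 (95% interval -0.11 to 0.06, adjusted p = 0.657).

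Gstp1, the pi-class transferase often abundant in tumour cells, was called in no comparison of untreated populations. It gave 1948, 1912 and 2011 normalized counts in 4T1, 1842, 1808 and 1892 in 4T1R1, and 1936, 1899 and 1858 in 4T1R2. The 4T1R1 libraries all lay below those of 4T1, and the 4T1R2 libraries overlapped with both. The log2 difference from 4T1 was -0.08 (95% interval -0.17 to 0.0044, edgeR adjusted p = 0.105) in 4T1R1 and -0.04 (95% interval -0.13 to 0.04, adjusted p = 0.419) in 4T1R2. Its neighbour Gstp2 had 7, 2 and 0 reads in untreated 4T1, 0, 1 and 5 in 4T1R1, and 1, 0 and 2 in 4T1R2, and with 17-DMAG 2, 5 and 3 in the 3 separate libraries of 4T1, 2, 2 and 1 in 4T1R1, and 0, 0 and 1 in 4T1R2. At these counts no difference in Gstp2 was detectable, and reads counted to it share sequence with Gstp1.

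The theta class was represented by Gstt3 at a low level and hardly by Gstt1, enzymes that act on small halogenated molecules and organic hydroperoxides. Gstt3 gave 238, 255 and 281 normalized counts in 4T1, 338, 296 and 322 in 4T1R1, and 280.1, 297 and 289 in 4T1R2. The 4T1R1 libraries lay above all of 4T1, and those of 4T1R2 overlapped with both. The log2 difference was 0.30 (SE 0.114, 1.24-fold, edgeR adjusted p = 0.0227) for 4T1R1 and 0.16 (95% interval -0.08 to 0.39, adjusted p = 0.265) for 4T1R2. The call in 4T1R1 was lost without replicate 1 (log2 0.26, adjusted p = 0.0907) or 3 (log2 0.30, adjusted p = 0.051) of 4T1R1, and without replicate 1 (log2 0.25, adjusted p = 0.1) or 2 (log2 0.30, adjusted p = 0.053) of untreated 4T1. Gstt1 had 0, 0 and 4 reads in untreated 4T1, 0, 0 and 1 in 4T1R1 and 0 in each 4T1R2 library, and with 17-DMAG 0 in each 4T1 library, 4, 2 and 2 in 4T1R1, and 2, 0 and 0 in 4T1R2. If reads are taken as independent, a count of 0 allows up to 3 reads, which corresponds to 2.41 to 3.91 normalized counts in these libraries. If both reads of a pair were counted, the limit is higher. No statement on Gstt1 is therefore possible beyond its being near the limit of detection.

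**Figure D2:**
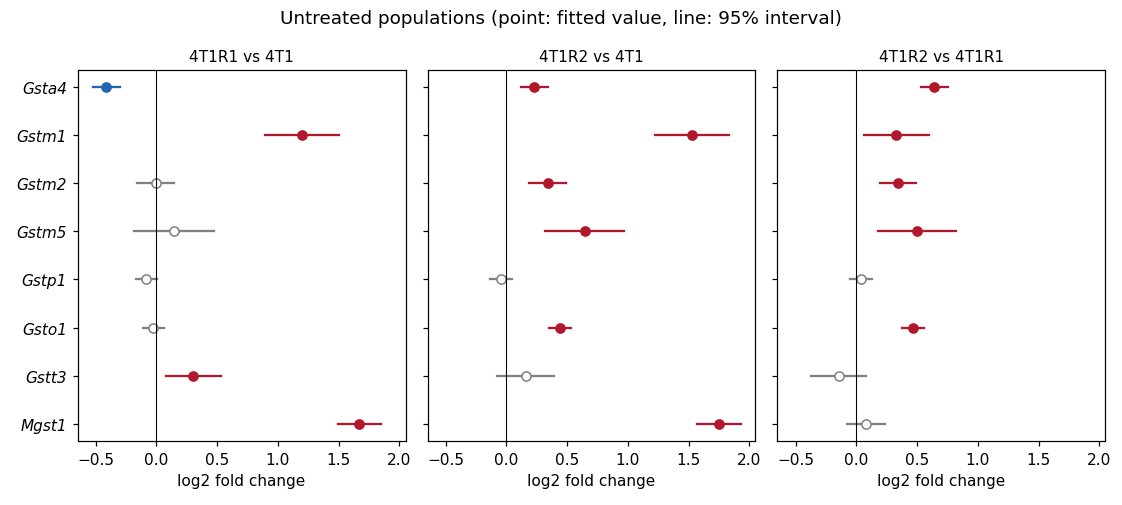
Log2 fold change (horizontal axis) of the 8 tested genes between untreated populations with its 95% interval, in red where higher, in blue where lower and as open grey points where the adjusted p was not under 0.05. Mgst1 and Gstm1 lie farthest to the right in both comparisons with 4T1, and Gsta4 lies on opposite sides of 0.

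Between the resistant populations, 5 of the 8 genes were higher in 4T1R2 than in 4T1R1 and 0 were lower, where 19.7% of all genes tested were higher and 19% lower, and the median log2 difference was 0.34 against -0.01. Gsta4 was 1.56-fold higher (log2 0.64, edgeR adjusted p = 2.13e-12), Gsto1 1.38-fold (log2 0.47, adjusted p = 1.42e-11), Gstm2 1.27-fold (log2 0.34, adjusted p = 0.000218) and Gstm5 1.41-fold (log2 0.50, adjusted p = 0.0101). For Gstm1 the libraries overlapped and the 1.26-fold difference was close to the threshold (log2 0.33, edgeR adjusted p = 0.047). It passed no longer in 9 of the 17 fits without 1 library (log2 0.24 to 0.33, adjusted p = 0.0501 to 0.218), namely without replicate 2 or 3 of untreated 4T1R1, 1 or 3 of untreated 4T1R2, 1, 2 or 3 of treated 4T1R1, or 1 or 2 of treated 4T1R2, nor with DESeq2 (adjusted p = 0.0947), with library totals as the only scaling (edgeR adjusted p = 0.0562) or when only the compared groups were fitted (edgeR adjusted p = 0.0587). The call of Gstm5 was lost without replicate 3 of untreated 4T1R1 or replicate 2 of untreated 4T1R2 (log2 0.43 in both, adjusted p = 0.0559 and 0.0515), and 3 genes were called in the first of these fits. This comparison cannot be told apart from the run of the library names.

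Compared per length, Gstp1, Gsto1 and Gsta4 made up the upper end of the family. Of the 100-base windows of Gstp1, 25.1% also occurred in Gstp2, and how such reads were counted is not given. The place of Gstp1 against Gsto1 is therefore uncertain. In RPKM, the reads per kilobase of exon scaled to the depth of the library, untreated 4T1 had 40.8 ± 1.05 (SD, n = 3) of Gstp1, 39.3 ± 2.81 of Gsto1 and 28.8 of Gsta4, followed by Gstm2 at 9.48, Mgst1 at 3.15 (range 3.05 to 3.19), Gstm5 at 2.49, Gstt3 at 2.17 and Gstm1 at 1.80. Gstp1 and Gsto1 overlapped in 4T1, as did Gstm5 and Gstt3, and the other neighbours in this order did not. In untreated 4T1R1 the order was Gsto1 (38.6), Gstp1 (38.5), Gsta4 (21.7), Mgst1 (9.999), Gstm2 (9.44), Gstm1 (4.14), Gstm5 (2.76) and Gstt3 (2.68), with overlap between Gsto1 and Gstp1, between Mgst1 and Gstm2, and between Gstm5 and Gstt3. In untreated 4T1R2 Gsto1 (53.4) stood alone at the top, above Gstp1 (39.6), Gsta4 (33.8), Gstm2 (11.98), Mgst1 (10.6), Gstm1 (5.19), Gstm5 (3.92) and Gstt3 (2.43), and Gstm1 overlapped with Gstm5. Mgst1 thus lay below Gstm2 in 4T1 and overlapped with it in 4T1R1, and Gstm1 moved from the last place of the tested genes to the sixth in both resistant populations. With the length of the longest transcript in place of all exons, Gstp1 (77.0) stood above Gsto1 (67.3) without overlap in 4T1, and Gstt3 (4.20) above Gstm5 (2.94), while in 4T1R1 Mgst1 (17.2) stood above Gstm2 (14.9) and Gstm1 (4.73) overlapped with Gstt3 (5.19).

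**Figure D3:**
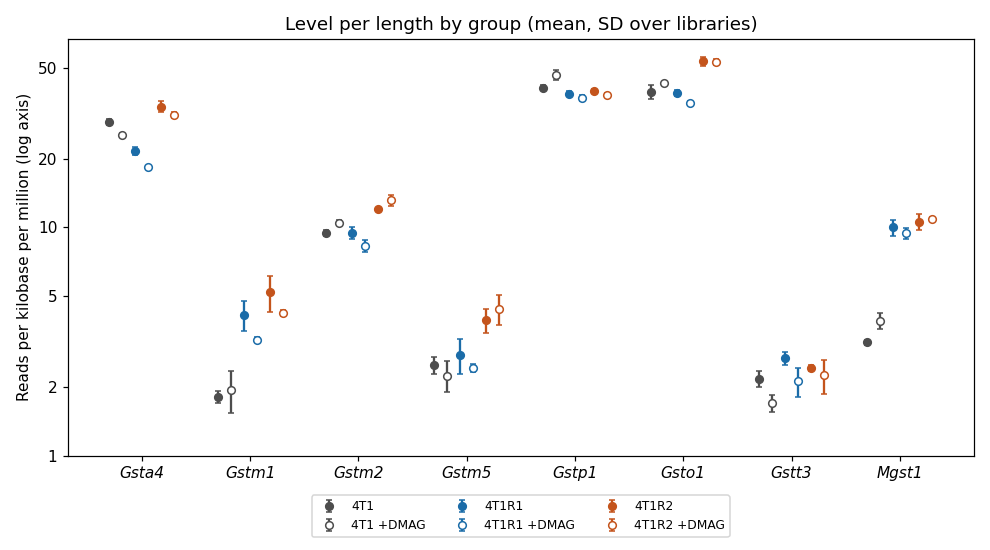
RPKM, the reads per kilobase of exon scaled to library depth (log axis), of the 8 tested genes in the 6 groups, as mean and SD over libraries. Gstp1, Gsto1 and Gsta4 stay at the top in every group, whereas Gstm1 is the lowest of the 8 in untreated 4T1 and the sixth in both untreated resistant populations, and Mgst1 lies below Gstm2 in 4T1 and 4T1R2 and overlaps with it in 4T1R1.

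The summed normalized counts of the 10 genes were 6684 ± 117 (SD, n = 3) in untreated 4T1, 6850.1 ± 181 in 4T1R1 and 8528 ± 271 in 4T1R2. With 17-DMAG they were 7087 ± 33.2 (n = 2), 6206 ± 179 and 8363 ± 194. Since these are not scaled by length, the sum is mostly Gsto1, Gstp1 and Gsta4.

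With 17-DMAG, log2 changes of the 8 tested genes lay between -0.37 and 0.30 in all populations. In 4T1, 3 genes were higher and 2 lower, where 18.4% of all genes tested were higher and 17.9% lower, with a median log2 change of 0.11 against 0.00064. In 4T1R1, 0 were higher and 4 lower, against 13.9% and 14.3% of all genes, with a median of -0.18 against -0.01. In 4T1R2, 0 were called in either direction by edgeR's quasi-likelihood test and 0 by DESeq2, against 6.18% of all genes higher and 4.35% lower. The unadjusted p from the edgeR fit was under 0.05 for 2 of the genes there, at 0.0286 for Gsta4 and 0.0266 for Gstm1. The 4T1 count was also 3 higher and 2 lower with relative log expression scaling in place of TMM, and 2 and 2 with DESeq2. It changed with library totals as the only scaling, where 0 members were higher and 2 lower. The median of all genes then moved by -0.115, and over all genes the split of 2490 higher and 2423 lower became 1193 and 4322. The same scaling turned 1874 and 1938 into 2356 and 1316 in 4T1R1, and 835 and 588 into 365 and 1146 in 4T1R2. Some marker sums moved with the drug as well. The fibroblast sum lay between 400.3 and 421 normalized counts in treated 4T1, between 713 and 780.2 in treated 4T1R1 and between 799 and 909 in treated 4T1R2, against the higher untreated values given above. The leukocyte sum lay between 348 and 393, between 616 and 708, and between 789 and 847, and the epithelial sum between 76998 and 77331, between 52159 and 53676, and between 61981 and 63568, in the same order. Their part in the responses was not tested.

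In 4T1, Gstp1 had the lowest adjusted p. It gave 1948, 1912 and 2011 normalized counts untreated and 2302 and 2152 with 17-DMAG, a 1.14-fold rise without overlap (log2 0.19, SE 0.0474, edgeR adjusted p = 0.00149). Leaving out the averaged pair of treated libraries ended this call (log2 0.14, adjusted p = 0.0867). In any fit that leaves out a treated 4T1 sample, that group is 1 library, which is assumed to vary like the libraries of the other groups. Mgst1 went from 199, 190.2 and 199 to 229 and 257 (1.23-fold, log2 0.30, SE 0.108, edgeR adjusted p = 0.0244), and Gsto1 from 2343, 2666 and 2383 to 2707 and 2674 (1.09-fold, log2 0.13, adjusted p = 0.036). Neither overlapped, but the call of Mgst1 was lost without replicate 2 of untreated 4T1 (log2 0.28, adjusted p = 0.0643), without treated replicate 3 (log2 0.22, adjusted p = 0.244) and when only these 2 groups were fitted (adjusted p = 0.053). That of Gsto1 was lost without replicate 1 or 3 of untreated 4T1 or either treated library (log2 0.09 to 0.13, adjusted p = 0.121 to 0.174) and with DESeq2 (adjusted p = 0.0616). With library totals as the only scaling these 3 genes were not called (log2 0.07 for Gstp1, 0.19 for Mgst1 and 0.01 for Gsto1). A change of scaling shifts all genes by about the same amount. Values relative to the median of all genes are therefore nearly fixed and are no check of these calls.

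Gsta4 and Gstt3 fell in 4T1 under 17-DMAG. Gsta4 gave 991 and 1009 normalized counts in treated cells, below all 3 untreated libraries (log2 -0.18, SE 0.0618, edgeR adjusted p = 0.0204), and Gstt3 gave 189 and 214, also below all of them (log2 -0.37, SE 0.134, 0.776-fold, adjusted p = 0.0287). The call of Gsta4 was lost without replicate 1 or 3 of untreated 4T1 or either treated library (adjusted p = 0.0539 to 0.146), and that of Gstt3 without replicate 3 of untreated 4T1 (log2 -0.30, adjusted p = 0.121) or the averaged pair (log2 -0.27, adjusted p = 0.273). The mu-class genes were not called in 4T1. Gstm1 gave 75.6 and 101.5 with 17-DMAG (log2 0.09, 95% interval -0.29 to 0.46), Gstm2 535 and 555 (log2 0.14, 95% interval -0.02 to 0.31) and Gstm5 78.9 and 98.3 (log2 -0.17, 95% interval -0.55 to 0.21).

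In 4T1R1 the called changes were all downward. Gsta4 went from 874, 865 and 812 normalized counts to 713, 713 and 726, which is 0.844-fold without overlap (log2 -0.24, edgeR adjusted p = 0.00144), and this call was kept in all 27 alternatives tried. Gstt3 went from 338, 296 and 322 to 209.95, 277 and 269 (log2 -0.34, adjusted p = 0.0203), Gsto1 from 2503, 2360.1 and 2396 to 2163, 2237 and 2182.2 (log2 -0.14, adjusted p = 0.0145), and Gstm1 from 220.2, 163 and 184 to 146, 151 and 144 (log2 -0.36, adjusted p = 0.0473). No treated library of these genes reached the lowest untreated one. The calls of Gstt3 and Gsto1 were lost without replicate 1 of untreated 4T1R1 (log2 -0.30 and -0.12, edgeR adjusted p = 0.0839 and 0.0823) or treated replicate 1 (log2 -0.22 and -0.13, adjusted p = 0.198 and 0.0598), and that of Gsto1 also with library totals as the only scaling (adjusted p = 0.0754). That of Gstm1 was lost in 8 of the 17 fits without 1 library (log2 -0.38 to -0.24, adjusted p = 0.0501 to 0.278), namely without replicate 1 or 3 of untreated 4T1R1, any treated 4T1R1 replicate, replicate 1 or 2 of treated 4T1R2, or replicate 3 of untreated 4T1. It was also lost with DESeq2 (adjusted p = 0.0798), with library totals as the only scaling (edgeR adjusted p = 0.0766) and when only the compared groups were fitted (edgeR adjusted p = 0.0507). Mgst1, at 550.3, 614 and 599.8 with 17-DMAG, overlapped with the untreated libraries (log2 -0.09, 95% interval -0.24 to 0.07).

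For the genes not called in 4T1R1, Gstm2 gave 415, 463 and 416 normalized counts with 17-DMAG (log2 -0.19, edgeR adjusted p = 0.0631) and was called without replicate 1 of untreated 4T1R1 (adjusted p = 0.038) or treated replicate 2 (adjusted p = 0.0339). Gstm5 gave 94.0, 100.5 and 94.1 and Gstp1 1715, 1805 and 1806. These had log2 changes of -0.18 and -0.06, and the treated Gstp1 libraries lay below all untreated ones.

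In 4T1R2, treated Gsta4 libraries at 1180.5, 1233 and 1244 normalized counts lay just below the untreated ones (log2 -0.12, 95% interval -0.23 to -0.01, edgeR adjusted p = 0.154). Gstm1 gave 193, 186 and 199 against 261, 188 and 261 (log2 -0.31, 95% interval -0.57 to -0.04, adjusted p = 0.147) and was called without replicate 2 of untreated 4T1R2 (log2 -0.44, adjusted p = 0.0425). Gsta4 was called when libraries were scaled by their totals alone (log2 -0.17, adjusted p = 0.0417). The treated libraries gave 713, 638 and 697 of Gstm2, all above the untreated ones, with a log2 change of 0.13. Gstm5, Gstp1, Gsto1, Gstt3 and Mgst1 overlapped between treated and untreated 4T1R2, with log2 changes between -0.11 and 0.18.

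**Figure D4:**
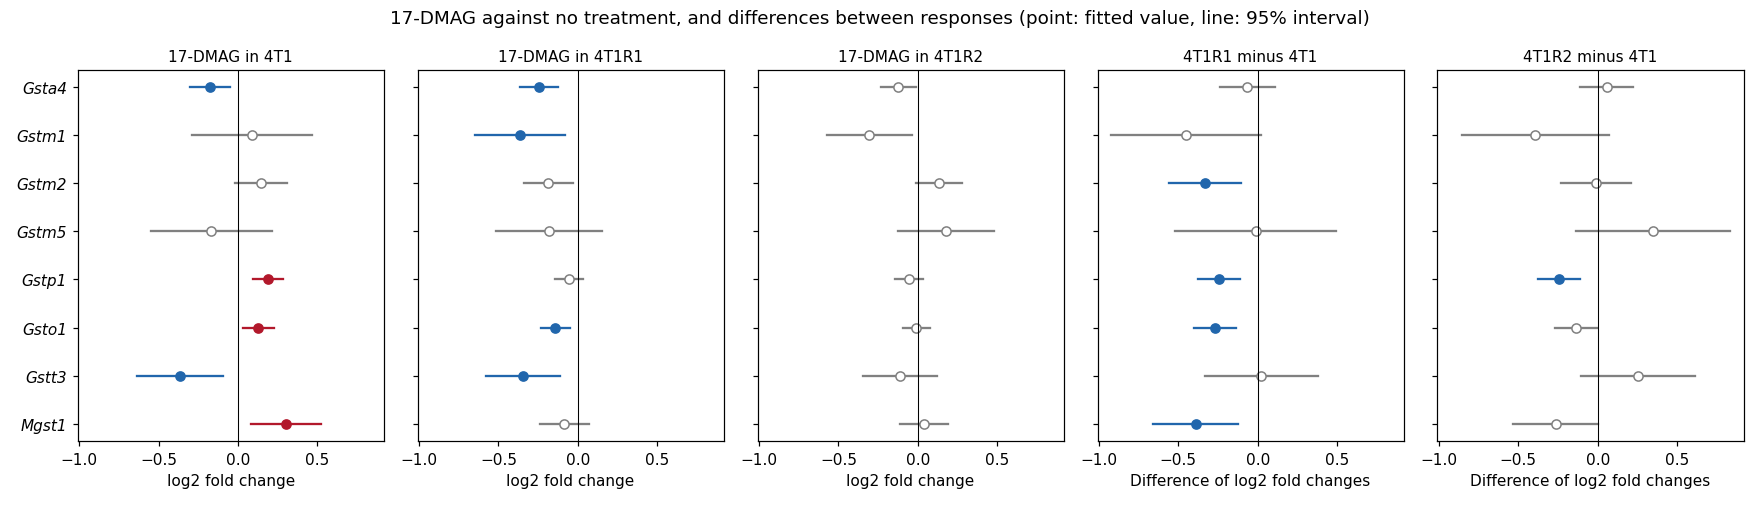
Log2 change (horizontal axis) with 17-DMAG in 4T1, 4T1R1 and 4T1R2 and the difference of the log2 changes of 4T1R1 and of 4T1R2 from that of 4T1, each with its 95% interval, coloured where the adjusted p was under 0.05. Gstp1, Gsto1 and Mgst1 lie above 0 in 4T1 and below 0 in 4T1R1, where Gsto1 alone of the 3 was called, and their differences lie below 0.

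The difference of the responses was tested directly. Between 4T1R1 and 4T1, 0 genes had a higher response and 4 a lower one, where 9.16% of all genes tested were higher and 9.08% lower, with a median of -0.26 against -0.0031. These were Gstp1 (difference of log2 changes -0.25, 95% interval -0.38 to -0.12, edgeR adjusted p = 0.00502), Gsto1 (-0.27, 95% interval -0.40 to -0.14, adjusted p = 0.00264), Gstm2 (-0.33, 95% interval -0.56 to -0.10, adjusted p = 0.0323) and Mgst1 (-0.39, 95% interval -0.66 to -0.12, adjusted p = 0.0332). Between 4T1R2 and 4T1, 0 were higher and 1 was lower, where 9.62% of all genes were higher and 8.16% lower, with a median of -0.08 against -0.0011. This was Gstp1 (-0.24, 95% interval -0.38 to -0.11, edgeR adjusted p = 0.0052). For Mgst1 the difference between 4T1R2 and 4T1 was -0.27 (95% interval -0.53 to 0.00057, adjusted p = 0.173) and for Gsto1 -0.14 (adjusted p = 0.149). Gsta4, which fell in both 4T1 and 4T1R1, had a difference of -0.07 (95% interval -0.24 to 0.11) in 4T1R1.

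Both differences use the same 2 treated 4T1 samples, and leaving out either makes that group 1 library. Without the averaged pair the Gstp1 difference was -0.20 (edgeR adjusted p = 0.0752) for 4T1R1 and -0.19 (adjusted p = 0.0854) for 4T1R2. The Gsto1 difference in 4T1R1 was called without any 1 of the 17 libraries. In 4T1R2 it was called without replicate 2 of untreated 4T1 (-0.20, adjusted p = 0.0234). That of Mgst1 in 4T1R1 was lost without untreated or treated replicate 1 of 4T1R1, replicate 2 of untreated 4T1 or treated replicate 3 of 4T1 (-0.37 to -0.31, adjusted p = 0.0644 to 0.213), and that of Gstm2 in 8 of the 17 such fits (-0.36 to -0.29, adjusted p = 0.0531 to 0.132), namely without replicate 2 or 3 of untreated 4T1R1, 1 or 3 of treated 4T1R1, 1 or 3 of untreated 4T1, or either treated 4T1 sample. The Gstm2 difference was not called without a filter on low counts either (-0.33, edgeR adjusted p = 0.0542). With library totals as the only scaling the median of all genes moved by 0.149 for 4T1R1, 0 of the 4 were called, and the split over all genes of 1237 higher and 1227 lower became 3536 and 419. For 4T1R2 it went from 1299 and 1102 to 2091 and 632.

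Other genes of glutathione metabolism were read from lists to place the family. Of 24 further transferases and related genes of the superfamily, 21 were in the table and 13 were tested, and 4 were higher and 1 lower in 4T1R1 than in 4T1, 4 higher and 3 lower in 4T1R2, and 1 higher and 4 lower with 17-DMAG in 4T1, with median log2 differences of 0.52, 0.20 and -0.44. Over all genes tested, 25.2% were higher and 27.5% lower in the first of these comparisons, 25.6% and 26.9% in the second, and 18.4% and 17.9% in the third, with medians of 0.01, 0.01 and 0.00064, and the counts of the 4 lists that follow stand against these same shares and medians. Among the superfamily genes Ptges, a microsomal prostaglandin E synthase of the same superfamily as Mgst1, fell with 17-DMAG in 4T1 (583 to 222 normalized counts, log2 -1.38, edgeR adjusted p = 2.69e-16), while Clic4, an intracellular channel protein with a transferase fold, rose (5665 to 9139, log2 0.69, adjusted p = 7.89e-21).

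Among genes that supply and recycle glutathione, Slc7a11 and Chac1 were higher in both resistant populations and after 17-DMAG in 4T1. Of 28 such genes 23 were tested, and 10 were higher and 6 lower in 4T1R1 than in 4T1, 12 higher and 3 lower in 4T1R2, and 9 higher and 2 lower with 17-DMAG in 4T1, with medians of 0.10, 0.31 and 0.12. Against 25.2%, 25.6% and 18.4% of all genes higher and 27.5%, 26.9% and 17.9% lower, the 6 lower in 4T1R1 were a share close to that of all genes. Slc7a11, the cystine importer that feeds glutathione synthesis, averaged 535 normalized counts in untreated 4T1, 3567 in 4T1R1 (6.69-fold, log2 2.74), 6886 in 4T1R2 (12.9-fold, log2 3.69) and 2689.6 in treated 4T1 (5.04-fold, log2 2.33). All 3 passed the edgeR test (adjusted p = 2.29e-34, 1.67e-39 and 3.19e-30). Its partner chain Slc3a2 rose 2.15-fold with 17-DMAG in 4T1 (log2 1.10, adjusted p = 1.3e-25). Chac1, which degrades glutathione, was also higher in 4T1R1 (log2 2.00), in 4T1R2 (log2 1.34) and with 17-DMAG in 4T1 (log2 2.43), whereas Ggct, which acts in the same breakdown route, was lower in both resistant populations (log2 -1.87 and -1.71).

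Of 18 genes for export of conjugates and their conversion to mercapturates, 12 were tested, and 3 were higher and 2 lower in 4T1R1 (all genes 25.2% and 27.5%), 6 higher and 1 lower in 4T1R2 (25.6% and 26.9%), and 4 higher and 1 lower with 17-DMAG in 4T1 (18.4% and 17.9%), with medians of 0.02, 0.09 and 0.01. The 3 higher in 4T1R1 were a share close to that of all genes. Of the export pumps, Abcc5 rose (1367 to 2079 normalized counts, log2 0.60) and Abcc3 fell (382 to 235, log2 -0.71) with 17-DMAG in 4T1.

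Of 24 NRF2 regulators and targets, 3 of which (Gclc, Gclm and Slc7a11) are also in the supply list, 23 were tested. There were 16 higher and 4 lower in 4T1R1 than in 4T1 (all genes 25.2% and 27.5%), 14 higher and 2 lower in 4T1R2 (25.6% and 26.9%), and 17 higher and 2 lower with 17-DMAG in 4T1 (18.4% and 17.9%), with medians of 0.17, 0.22 and 0.29. In the differences of response 18 were lower and 1 higher for 4T1R1, where 9.08% of all genes were lower and 9.16% higher, and 15 lower and 1 higher for 4T1R2, where 8.16% were lower and 9.62% higher, with medians of -0.34 and -0.30. With library totals as the only scaling, which moved the split over all genes to 3536 higher and 419 lower for 4T1R1 and to 2091 and 632 for 4T1R2, 13 and 12 of the list were lower. Sqstm1, an autophagy receptor that binds the NRF2 inhibitor KEAP1, was higher in 4T1R1 (log2 1.20) and 4T1R2 (log2 1.45). Nqo1, a reductase of quinones that acts on benzoquinone ansamycins, averaged 273 normalized counts in 4T1, 226 in 4T1R1 and 720.02 in 4T1R2, 2.63-fold higher than in 4T1 (log2 1.39, edgeR adjusted p = 1.58e-16) and 3.19-fold higher than in 4T1R1 (log2 1.67, adjusted p = 4.08e-18). With 17-DMAG in 4T1 the heme-degrading Hmox1 (log2 1.27) and Osgin1 (log2 0.98) rose, and Nfe2l2, the gene of NRF2 itself, fell (log2 -0.77).

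Of 25 genes of aldehyde and quinone metabolism 17 were tested, and 8 were higher and 2 lower in each resistant population than in 4T1 (all genes 25.2% and 27.5% for 4T1R1, 25.6% and 26.9% for 4T1R2), and 4 higher and 6 lower with 17-DMAG in 4T1 (18.4% and 17.9%), with medians of 0.11, 0.10 and -0.02. Aldh3a1, an aldehyde dehydrogenase, was higher in 4T1R1 (577 to 1612 normalized counts, log2 1.48) and in 4T1R2 (1479, log2 1.36). All comparisons of this kind share the untreated 4T1 libraries, and no list was tested against other genes.

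**Figure D5:**
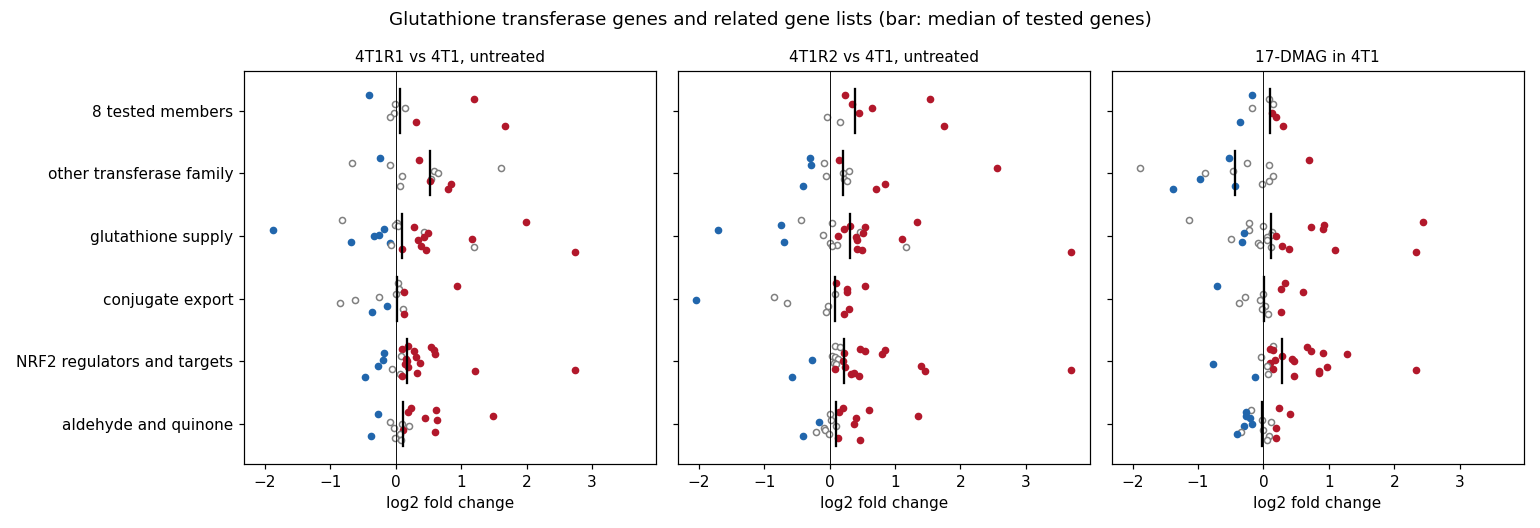
Log2 fold change (horizontal axis) of each tested gene of the family and of 5 related lists in 4T1R1 against 4T1, 4T1R2 against 4T1 and 17-DMAG against no treatment in 4T1, in red where higher, in blue where lower, as open grey points where not called, and with a bar at the median of each list. Slc7a11, which is in 2 of the lists, lies farthest to the right in both untreated comparisons, at 2.74 and 3.69, and Chac1 with 17-DMAG, at 2.43.

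Across the 17 libraries, the 3 genes with the widest range of group means among the 8 tested were Mgst1, Gstm1 and Gstm5, and the genes nearest to them in pattern were sought among 10630 genes by Pearson's r of log2(normalized count + 1). For Mgst1 these were Parp14 (r = 0.993), Samd9l (r = 0.992) and Rab32 (r = 0.990), for Gstm1 Mycl (r = 0.966), Lgals3 (r = 0.964) and Il18rap (r = 0.957), and for Gstm5 Fcf1 (r = 0.930), Fam162a (r = 0.917) and S100a4 (r = 0.916). The libraries fall into 6 groups, so these values mostly describe likeness between group means. Ranked by Spearman's rho, only Il18rap for Gstm1 was named again. Within the family the closest pairs were Gstm2 with Gsto1 (r = 0.948), Gstm1 with Mgst1 (r = 0.927) and Gsta4 with Gsto1 (r = 0.846), and Gstp1 ran opposite to Mgst1 (r = -0.666).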

How the data were processed

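Per the labels, rRNA was removed from total RNA and libraries kept the strand. The authors aligned reads to mm10/GRCm38 with STAR and counted them per gene with featureCounts (Subread 1.6.2, and bcl2fastq 2.20 for base calls, per the submitters' processing notes), and deposited the counts as whole numbers without normalization. In each library 65.6 to 70.8% of counts from 1 to 12 were even, which fits counting each of the 2 reads of a pair on its own, so counts are called reads here. The ribosomal transcript Rn45s took 9.54 to 15.6% of counts. No column was left unmapped.

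The counts were analysed in R 4.3.3 with edgeR 4.0.16: filterByExpr, TMM, 1 fit of 6 group means, quasi-likelihood tests and Benjamini-Hochberg adjustment over 13507 genes at 0.05. The study's methods name DESeq2, used here (version 1.42.0) as an alternative. SE is the log2 difference divided by the root of F. Replicates 1 and 2 of treated 4T1 gave a mean chi-square of 1.10 per gene and were averaged. The 17 other same-group pairs gave 2.04 to 2.22. Only genes whose pair total was 4 to 30 counts were used. The chi-square was not adjusted for counting both reads of a pair, so these values do not measure the spread between cultures. The series record calls replicates biological but does not say how cultures were split, so p-values measure the spread between these libraries. The fit was tested on simulated data for untreated 4T1R2 against 4T1 only, with 200 of 13200 genes changed, a smaller share than was called in these data. There 99% of the 2-fold changes were called, and 5.9% of the calls were genes without a change. The other comparisons and the differences of response were not simulated. The floor of 3 reads for a count of 0 covers counting error only and takes reads as independent, which reads of the same pair are not. The 95% intervals of log2 differences are built from the SE, which includes the spread between libraries. Normalized counts are the count over the TMM-scaled library size times the mean of that size.

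The 10 members and all gene lists were chosen with earlier results of these data known, and no list was tested. From the related lists, genes with adjusted p under 0.05 and at least 2-fold difference between untreated populations or 1.5-fold response were named, at most the 3 largest in each direction, where the higher group averaged 100 normalized counts or more. Sequences are from GENCODE vM21 transcripts and RefSeq promoters. Alternatives were other scalings, filters, tools and sample sets, a replicate block, Gstp1 and Gstp2 summed, Spearman's rho, another gene length, and each library left out in turn. Figures were drawn with matplotlib 3.10.9.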

Additional observations from a re-analysis of the deposited data

Results flagged for a closer look

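The responses to 17-DMAG of Gstm2, Gstp1, Gsto1 and Mgst1 differed between 4T1R1 and 4T1 by a test of the difference itself, edgeR's quasi-likelihood test of the interaction. The differences of the log2 changes, 4T1R1 minus 4T1, were -0.33 for Gstm2 (-0.33081), -0.25 for Gstp1 (-0.246), -0.27 for Gsto1 (-0.26959) and -0.39 for Mgst1 (-0.39014). In 4T1 these genes had log2 changes of 0.14, 0.19, 0.13 and 0.30, and in 4T1R1 of -0.19, -0.06, -0.14 and -0.09.

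For 4T1R2 minus 4T1 the same test passed for Gstp1, with a difference of -0.24 (-0.24488). Both comparisons use the treated 4T1 samples with n = 2.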

How the results depend on the processing

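Of 1760 alternative values of the 8 tested members, 1649 kept their direction and side of the threshold, 72 lost their call and 5 gained one. The 34 that changed direction were called neither in the reported fit nor under the alternative, and their reported size was at most 0.144 on the log2 scale. Some alternatives could hardly move a log2 value. Examples are a fit without a library outside the groups compared, or Gstp1 and Gstp2 summed for the other genes. The tally of 1649 is therefore no measure of stability. The calls of Mgst1, Gstm1 and Gsta4 in both resistant populations against 4T1, and of Gstm2, Gstm5 and Gsto1 in 4T1R2 against 4T1, were kept in every alternative run.

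With library totals as the only scaling, the log2 difference was 0.021 for Gstm2 and 0.0010 for Gsto1 in 4T1R1 against 4T1, -0.029 for Gstm1 with 17-DMAG in 4T1, -0.0089 for Mgst1 with 17-DMAG in 4T1R2, 0.084 for Gsta4 and 0.14 for Gstm5 in the 4T1R1 difference of response, and 0.056 for Gstm2 in that of 4T1R2. Under it 0 members rose in 4T1, 2 fell in 4T1R1 and 1 in 4T1R2, and 0 had a lower response in 4T1R1 or 4T1R2. Gstm2 in 4T1R1 against 4T1 was 0.00030 with at least 10 counts in every library and 0.0047 when only the compared groups were fitted. The causes were not tested. With 18 separate libraries the Gstm5 difference of response was 0.038.

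Leaving out 1 library at a time, values that changed sign ranged from -0.043 to 0.040 for Gstm2, -0.0064 to 0.22 for Gstm5 and -0.060 to 0.034 for Gsto1 in 4T1R1 against 4T1, from -0.13 to 0.31 for Gstm1 with 17-DMAG in 4T1, from -0.031 to 0.033 for Gsto1, -0.24 to 0.0074 for Gstt3 and -0.025 to 0.073 for Mgst1 with 17-DMAG in 4T1R2, from -0.18 to 0.14 for Gstm5 and -0.076 to 0.14 for Gstt3 in the 4T1R1 difference of response, and from -0.046 to 0.034 for Gstm2 in that of 4T1R2. In these fits 3 to 5 members were higher in 4T1R2 than in 4T1R1, 1 to 3 rose and 0 to 2 fell in 4T1, 1 to 4 fell in 4T1R1 and 0 to 1 in 4T1R2, 2 to 4 had a lower response in 4T1R1 and 0 to 2 in 4T1R2.

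No pairing of the samples by replicate number was seen, which does not show that the cultures were unpaired. Deviations of same-numbered libraries correlated between -0.107 and 0.0924 over 45 pairs (median -0.003), and those of differently numbered ones between -0.107 and 0.143 over 90. With the replicate number as a block and 18 libraries, the member counts were 3 higher and 1 lower in 4T1R1 and 6 and 0 in 4T1R2 against 4T1, as without it, and the Gstm5 difference of response in 4T1R1 was 0.037.

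With Spearman's rho the highest correlation of another gene with Mgst1, Gstm1 and Gstm5 named other genes than Pearson's r, except Il18rap. The same alternatives were run for the related lists, a choice made after seeing the data, and all 22 named differences kept their call. These 22 were named for being called and large, so this outcome was close to fixed by the choice and is no check of the lists.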
